A study of Mus musculus with 12 samples.

Results

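The immunoglobulin Fc receptors *Fcgr1*, *Fcgr2b*, *Fcgr3* and *Fcgr4* and their common gamma chain *Fcer1g* were examined as a listed gene family. All 5 genes were among the 10697 genes of the deposited table. They were measured in primary mouse adult fibroblasts (MAFs), cells grown out of biopsies of adult wild-type C57BL6/j mice and kept in culture. The cultures received 100 µM thymol, a phenolic terpenoid of thyme and oregano, dissolved in DMSO (6 libraries, here called thymol), or an equal volume of DMSO alone (6 libraries) for 24 h. Both groups therefore carried the solvent. The number of mice behind the 12 libraries and their age were not given in the sources used here, so p-values measure the spread between these libraries, which may be technical. Transcripts were read from their 3′ ends by QuantSeq, in which a transcript gives about 1 read whatever its length.

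Fc receptors bind the constant part of antibodies and couple immune complexes to phagocytes. *Fcgr1*, *Fcgr3* and *Fcgr4* encode activating receptors for IgG that have no signaling motif of their own. They associate with a dimer of the gamma chain, whose tail carries an immunoreceptor tyrosine-based activation motif (ITAM) that recruits the kinase Syk once it is phosphorylated. *Fcgr2b* encodes the inhibitory receptor, whose tail carries an inhibitory motif (ITIM) that recruits the phosphatase SHIP-1. These receptors are best known from macrophages and other leukocytes, not from fibroblasts.

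The coding bases of the 2 motifs are shown because they set the sign of each receptor chain's signal. Both were read from GENCODE vM21 transcripts on the build GRCm38, and capitals mark the codons of the tyrosines that are phosphorylated. The ITAM is encoded by 45 bases over 2 exons within chr1:171229889-171230072 (minus strand, residues 65 to 79 of 86), and the ITIM by 18 bases of 1 exon at chr1:170961071-170961088 (minus strand, residues 317 to 322 of 340).
Fcer1g ITAM: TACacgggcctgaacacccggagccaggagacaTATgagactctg
Fcgr2b ITIM: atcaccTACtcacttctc
The ITAM pattern had 0 matches in the proteins of *Fcgr1*, *Fcgr2b*, *Fcgr3* and *Fcgr4*. The letters of the ITIM pattern also occurred 3 times in *Fcgr1*, 1 time in *Fcgr4* and 1 time in *Fcer1g*, and such a match is a description of the letters only.

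Of the 5 genes, 4 lie in 1 cluster on chromosome 1. *Fcgr2b* spans 170958617 to 170976547 on the minus strand, *Fcgr4* 171018920 to 171029761 on the plus strand, *Fcgr3* 171051174 to 171064935 on the minus strand and *Fcer1g* 171229572 to 171234365 on the minus strand, together 276 kb. *Fcgr1* lies apart, on chromosome 3 at 96282909 to 96293969 on the minus strand. *Fcgr2b* and *Fcgr3* are close relatives, and 12.8% of the 50-base windows of the main *Fcgr3* transcript occurred in *Fcgr2b*. Within the last 500 bases of the main transcript, the end that QuantSeq reads, 0 windows of any of the 5 genes occurred in another gene. Among 4 coding transcripts of *Fcgr2b*, the highest share of end windows found elsewhere was 7.32%. An antisense gene, *Gm38204*, overlaps the start of *Fcgr2b*, away from its 3′ end, and was not in the table. The microRNA gene *Mir6546* in *Fcgr3* and the snRNA gene *Gm26110* in *Fcgr4* lie on the strand of the receptor gene. They were not in the table either. Whether the authors counted by strand was not given in the sources used here.

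RefSeq promoters on GRCm38.p6 (250 bases before to 50 bases after a start) were found for all 5 genes. The letters GAGGAA, a core of the site bound by the myeloid factor PU.1, were present on either strand in the promoters of *Fcgr1*, *Fcgr3* and *Fcgr4*, and in those of 31.3% of all 27025 genes. The letters TTCNNNGAA of the gamma-activated site, through which interferon-gamma acts, were present in the promoter of *Fcgr1* alone among the 5, and in 9.55% of all genes. The windows around the GAGGAA letters are shown because the 3 activating receptors share them. All 3 hold them on the opposite strand, so that capitals mark TTCCTC, the reverse complement. The windows lie at chr3:96293997-96294046 (*Fcgr1*, minus strand), chr1:171059382-171059431 (*Fcgr3*, minus strand) and chr1:171018882-171018931 (*Fcgr4*, plus strand). The RefSeq promoters of *Fcgr2b* and *Fcgr3* lie wholly inside the GENCODE spans of these genes. The bases before the GENCODE starts of these genes were not searched.
Fcgr1: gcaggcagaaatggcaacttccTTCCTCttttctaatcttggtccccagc
Fcgr3: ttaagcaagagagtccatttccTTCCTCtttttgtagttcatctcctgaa
Fcgr4: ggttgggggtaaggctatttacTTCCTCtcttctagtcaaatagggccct

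The labelled cell type was checked against marker genes. Of 15 fibroblast markers 13 were in the table, and of 15 macrophage markers 14 were. The summed level of the macrophage markers was 17500 to 19300 CPM (read counts scaled to library size) with DMSO and 17600 to 21100 with thymol, and that of the fibroblast markers 14700 to 15800 and 13900 to 14500. The macrophage sum, led by *Lyz2*, *C1qa* and *C1qb*, was thus above that of the labelled cell type, led by *Col1a1*, *Col1a2* and *Vim*. It leaned on *Lyz2*, at 13.61 log2 CPM with DMSO and 13.69 with thymol, while *C1qa* had 10.48 and 10.45. The median marker level went the other way, with 8.35 log2 CPM for the fibroblast markers and 7.72 for the macrophage markers. Among the fibroblast markers *Col1a1* and *Col3a1* passed the threshold described below, both lower with thymol, against 1.57% of all genes. Of 10 neutrophil markers only *S100a8* was present. For mast cells, B cells, NK cells, dendritic cells and T cells 0 of 8, 8, 7, 7 and 7 markers were in the table. In bulk libraries, fewer cells of a type and less RNA per cell cannot be told apart.

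The levels of the 5 genes fell into 2 tiers. *Fcer1g* had a mean of 9.26 log2 CPM over the 12 libraries and ranked 181 of all genes. *Fcgr3* followed with 7.99 and *Fcgr2b* with 7.33. *Fcgr1* (4.21) and *Fcgr4* (4.22) were in the lower tier, above 32.4% and 32.7% of the genes of the table. Inside every library the order was *Fcer1g*, then *Fcgr3*, then *Fcgr2b*: the difference between *Fcer1g* and *Fcgr3* was at least 1.17 log2 units with either treatment, and that between *Fcgr3* and *Fcgr2b* at least 0.38. *Fcgr1* and *Fcgr4* did not differ beyond their spread, since the difference of *Fcgr4* minus *Fcgr1* ran from -0.23 to 0.87 with DMSO and from -1.003 to 0.61 with thymol. These are read shares of 3′ ends on the log2 CPM scale, and how efficiently each 3′ end was read was not tested.

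The comparison of thymol with DMSO asked whether this receptor family was part of the transcriptional response. At a limma adjusted p-value below 0.05, 1 of the 5 genes was called, the inhibitory receptor gene *Fcgr2b*, which was lower with thymol. Over the table, 2.22% of genes passed, 1.57% towards lower and 0.654% towards higher levels, and the single call among the 5 says nothing about the family as a whole. *Fcer1g*, *Fcgr3* and *Fcgr1* did not pass. *Fcgr4* showed the biggest difference of the 5 and did not pass either.

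**Figure D1:**
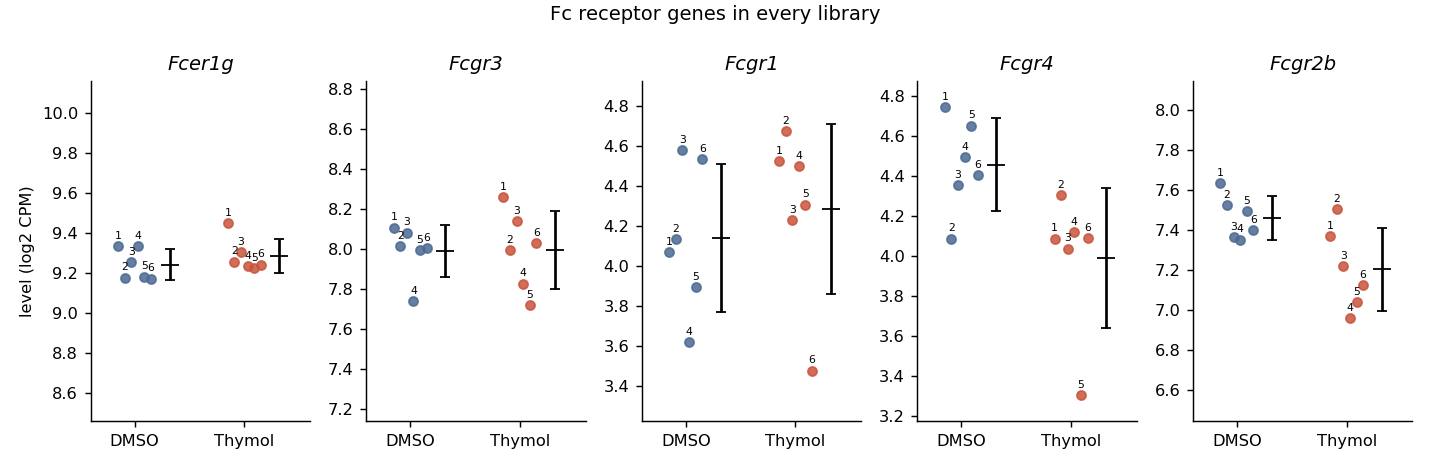
Level of each gene (log2 CPM, vertical axis) in the 6 DMSO and 6 thymol libraries, 1 point per library with its replicate number, and the mean ± SD in black. Every panel spans the same number of log2 units. For *Fcgr2b*, 4 thymol points lie under the lowest DMSO point, while the groups overlap for *Fcer1g* and *Fcgr3*.

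The shared signaling chain was the most even of the 5 genes. *Fcer1g* ranged from 9.17 over a median of 9.22 to 9.34 log2 CPM with DMSO, and from 9.22 over 9.25 to 9.45 with thymol. All 6 thymol libraries lay above the DMSO median, and thymol replicate 1 above every DMSO library. The log2 fold change (thymol minus DMSO) was 0.043 ± 0.050 (SE, n = 6 each, limma adjusted p = 0.83), with a 95% confidence interval of -0.058 to 0.14. This rested on 3288 to 5425 reads per library, recovered from the steps of the deposited values, and the interval holds changes of between 0.96-fold and 1.11-fold.

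*Fcgr3*, which encodes the low-affinity activating receptor of macrophages, was the most abundant of the 4 receptors. It ranged from 7.74 over a median of 8.01 to 8.11 log2 CPM with DMSO and from 7.72 over 8.01 to 8.26 with thymol. The thymol libraries spread to both sides of the DMSO range, with 1 below every DMSO library, 2 above every DMSO library and 3 inside that range. The log2 fold change was 0.0052 ± 0.069 (SE, n = 6 each, limma adjusted p = 0.99), with an interval of -0.13 to 0.14.

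*Fcgr1*, the gene of the high-affinity receptor, was scarce and scattered. It ranged from 3.62 over a median of 4.10 to 4.58 log2 CPM with DMSO (80 to 190 reads) and from 3.48 over 4.404 to 4.67 with thymol (59 to 177 reads). Of the thymol libraries 5 lay above the DMSO median, and replicate 6 was the lowest of all 12. The log2 fold change was 0.15 ± 0.18 (SE, n = 6 each, limma adjusted p = 0.84). Its interval, -0.21 to 0.50, holds a fall to 0.865-fold as well as a rise to 1.42-fold.

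*Fcgr4*, the gene of a mouse receptor of intermediate affinity, was lower in the thymol libraries without passing the threshold. It ranged from 4.09 over a median of 4.45 to 4.74 log2 CPM with DMSO (116 to 199 reads) and from 3.30 over 4.09 to 4.31 with thymol (87 to 115 reads). All 6 thymol libraries lay below the DMSO median, and 2 lay below every DMSO library. The log2 fold change was -0.47 ± 0.16 (SE, n = 6 each, limma adjusted p = 0.15, unadjusted p = 0.0060), with an interval of -0.79 to -0.14. An unadjusted p-value below 0.05 was reached by 11.8% of all genes. When thymol replicate 5, its lowest library, was left out, the log2 fold change was -0.33. In the odd-numbered libraries alone it was -0.77 and in the even-numbered ones -0.16. The difference between these, computed after the values were seen, was -0.62 ± 0.32 (SE) and did not pass (limma adjusted p = 0.997, unadjusted p = 0.058).

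*Fcgr2b*, the gene of the inhibitory receptor, fell by 16.4%. It ranged from 7.35 over a median of 7.45 to 7.63 log2 CPM with DMSO (1086 to 1489 reads) and from 6.96 over 7.17 to 7.51 with thymol (727 to 1192 reads). Of the thymol libraries 4 lay below every DMSO library, while replicates 1 and 2 lay within the DMSO range. The log2 fold change was -0.26 ± 0.073 (SE, n = 6 each, limma adjusted p = 0.043), with an interval of -0.41 to -0.11. The call stood close to the threshold: leaving out each library in turn kept the direction in 12 of 12 fits, between -0.32 without thymol replicate 2 and -0.21 without thymol replicate 4, and kept the call in 4 of 12. It was lost without DMSO replicates 1 (adjusted p = 0.14), 2 (0.10), 5 (0.091) or 6 (0.056) and without thymol replicates 3 (0.080), 4 (0.15), 5 (0.11) or 6 (0.12).

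**Figure D2:**
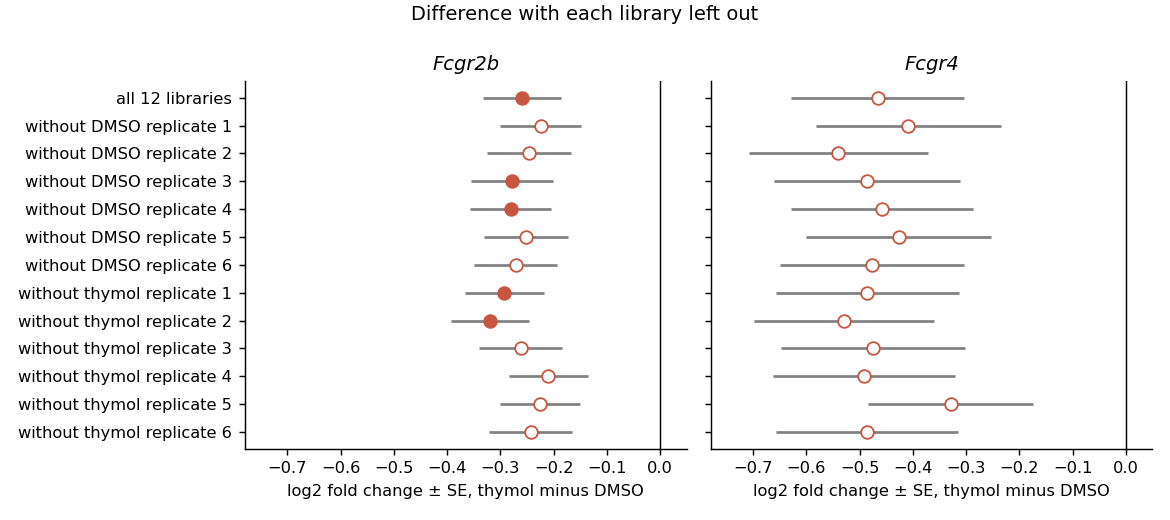
Log2 fold change ± SE (horizontal axis, thymol minus DMSO, limma) of *Fcgr2b* and *Fcgr4* with all 12 libraries and with each library left out. Filled points passed an adjusted p-value of 0.05: for *Fcgr2b* 4 of the 12 reduced fits, for *Fcgr4* 0. All points lie below 0.

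By the medians, the inhibitory gene took a smaller share of the Fc gamma receptor reads with thymol, and the ranges of the groups overlapped. Within a library, *Fcgr3* exceeded *Fcgr2b* by 0.38 to 0.71 log2 units with DMSO (median 0.49) and by 0.49 to 0.92 with thymol (median 0.88). In 4 of 6 thymol libraries this difference lay above every DMSO library, and thymol replicates 2 and 5 lay inside the DMSO range. *Fcgr2b* made up 34.4% to 39.8% of the summed CPM of the 4 receptors with DMSO (median 38.2%) and 31.8% to 37.7% with thymol (median 32.5%). The summed CPM of the 3 activating receptors was 1.52 to 1.91 times that of *Fcgr2b* with DMSO (median 1.62) and 1.65 to 2.14 times with thymol (median 2.08). These ratios combine values given above, so they carry no test.

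**Figure D3:**
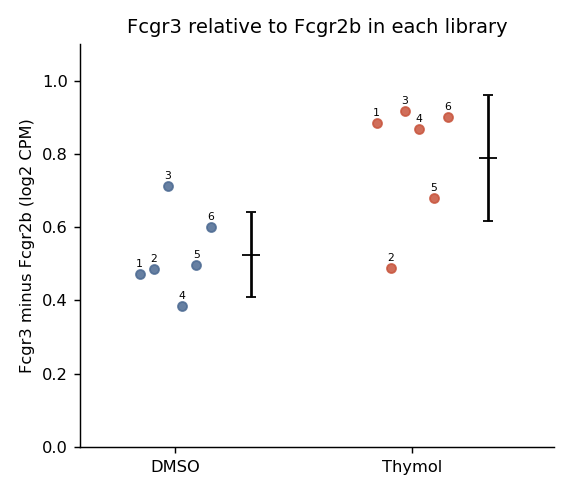
Difference between the log2 CPM of *Fcgr3* and *Fcgr2b* (vertical axis) in each of the 6 DMSO and 6 thymol libraries, with replicate numbers and the mean ± SD in black. Of the thymol libraries 4 lie above 0.71, the highest DMSO value.

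Macrophage markers gave a further scale. The mean of the 14 genes stood at 8.45 ± 0.025 log2 CPM in the DMSO libraries and at 8.37 ± 0.056 in the thymol libraries (SD, n = 6 each). Of them *Itgam* and *Cd14* passed the threshold, both lower, against 1.57% of all genes, and 0 were higher. Taken relative to this mean in the same library, *Fcgr2b* differed by -0.19 between thymol and DMSO, *Fcgr4* by -0.39, *Fcgr3* by 0.078, *Fcgr1* by 0.22 and *Fcer1g* by 0.12. On that scale 4 thymol libraries still lay under the lowest DMSO value for *Fcgr2b*, and thymol replicate 2, whose marker mean was the lowest, lay above all DMSO libraries. The part of macrophage content in the result was not tested.

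The 5 genes did not move as 1 unit between libraries. With group means removed, the correlation over the 12 libraries was highest for *Fcgr2b* with *Fcgr3* (Pearson's r = 0.62, Spearman's rho = 0.52) and lowest for *Fcgr1* with *Fcgr4* (r = -0.063, rho = -0.22). The genes most like each member, by r among 5394 genes with a mean of at least 5 log2 CPM, were *Gab2* and *Ankrd17* for *Fcgr3* (0.94 and 0.93), *Pinx1* and *Sdhaf2* for *Fcgr2b* (both 0.90), *Ndufv3* for *Fcer1g* (0.92), *Dvl3* and *Nedd9* for *Fcgr1* (0.93 and 0.89), and *Cwc15* and *Eif2b3* for *Fcgr4* (0.90 and 0.86). These values describe 12 libraries that share depth and scaling, and for the low genes they rest on few reads. *Gab2*, an adaptor of the ITAM pathway, is also in the list of activating signaling below. The top percentile of the compared genes began at r = 0.84 for *Fcgr3* and at 0.684 to 0.726 for the other members.

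The genes around the cluster on chromosome 1 gave the local background. Within 250 kb of it, 16 of 27 other protein-coding genes were in the table. Of these, 0 passed in limma, against 2.22% of all genes, and 3 had an unadjusted p-value under 0.05, against 11.8%. Their median log2 fold change was 0.019, with a range of -0.31 to 0.76, against a median of 0.0026 for all genes.

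The partners of the receptors were described by lists written from general knowledge. Together they held 141 genes, of which 102 were in the table. In all, 8 passed (7.84%, against 2.22% of all genes), 2 higher and 6 lower, and the median log2 fold change of the 102 was -0.034. For 6 of the 102 genes the values did not overlap between the groups, against 1.68% of all genes. Since several of the lists are small and were chosen with earlier results known, these counts are descriptions.

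**Figure D4:**
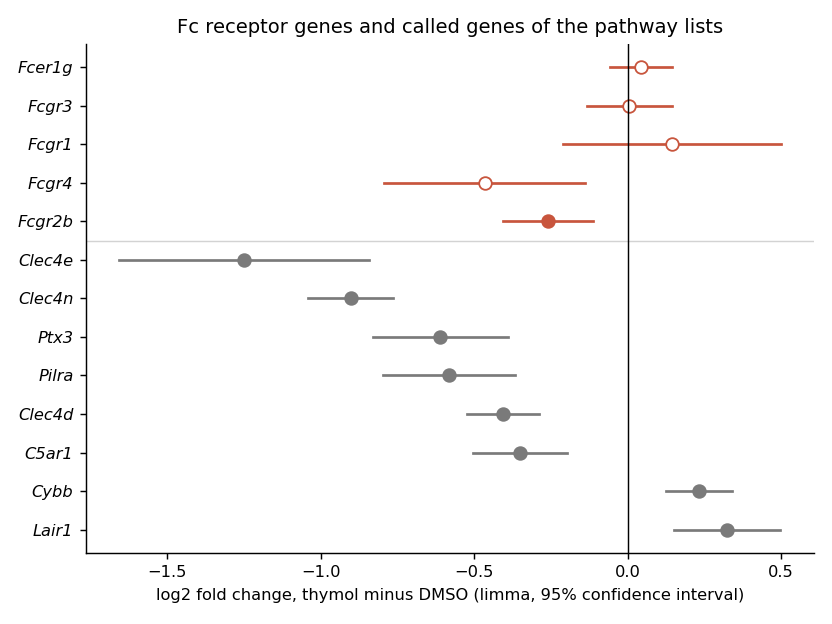
Log2 fold change with 95% confidence interval (horizontal axis, thymol minus DMSO, limma) of the 5 Fc receptor genes (red) and of the 8 genes of the pathway lists that passed (gray). Filled points passed an adjusted p-value of 0.05. The 3 lectins that use the gamma chain lie further from 0 than *Fcgr2b*, at -0.41 to -1.25, while *Fcer1g* itself lies at 0.043.

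Of the other receptors listed as signaling through the gamma chain, only 3 lectins were in the table, and these were lower. This list, too, was chosen with earlier results known. All 3 listed lectins in the table fell and passed, of 9 genes listed, against 1.57% of all genes called lower. They encode receptors for fungal and mycobacterial glycolipids and mannans. *Clec4n* (Dectin-2) ranged from 8.10 over a median of 8.25 to 8.46 log2 CPM with DMSO and from 7.14 over 7.36 to 7.67 with thymol, a log2 fold change of -0.90 ± 0.068 (SE, n = 6 each, limma adjusted p = 2.6e-14). *Clec4d* changed by -0.41 (adjusted p = 3.5e-06) and *Clec4e* (Mincle), with a mean of 81.8 reads, by -1.25 (adjusted p = 3.5e-05). For each of the 3, the 6 thymol libraries lay below all 6 DMSO libraries. Over all genes 1.68% had no overlap, in either direction. The related adaptor *Tyrobp* (DAP12), which serves other receptors of macrophages, did not pass (0.046, adjusted p = 0.82), nor did *Hcst* (DAP10, -0.28, adjusted p = 0.79). In limma and in voom 0 of these adaptors had an unadjusted p-value under 0.05, against 11.8% of all genes in limma.

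Among other inhibitory receptors with an ITIM, 9 of 13 were in the table, with 1 called in each direction, against 0.654% of all genes higher and 1.57% lower. An unadjusted p-value under 0.05 was found for 5 in limma, against 11.8% of all genes, and for 6 in voom. The median log2 fold change was -0.13, and 6 of the 9 had a value below 0. *Pilra*, a receptor for glycoproteins, fell by 0.58 on the log2 scale (adjusted p = 0.00030), with all 6 thymol libraries below the DMSO libraries. The margin was narrow, with a highest thymol value of 5.6052 and a lowest DMSO value of 5.6065 log2 CPM. No overlap was seen for 1.68% of all genes, in either direction. *Lair1*, a receptor for collagen, rose by 0.33 (adjusted p = 0.024), and 5 of its 6 thymol values exceeded the top DMSO value. Leaving out DMSO replicate 2, thymol replicate 3 or thymol replicate 5 ended the call for *Lair1* (adjusted p = 0.14, 0.075 and 0.074). The *Lair1* call was also lost without the mean-variance trend (adjusted p = 0.24) and in odd-numbered (0.21) or even-numbered libraries alone (0.24). *Sirpa* passed in voom but not in limma. The inhibitory enzymes and adaptors held 12 genes, all in the table, of which 0 passed in limma and 0 in voom. Unadjusted p-values under 0.05 numbered 2 and 3, against 11.8% of all genes in limma. The smallest were those of *Dok1*, an adaptor that restrains Ras signaling (log2 fold change 0.30, adjusted p = 0.14), and *Inppl1*, which encodes SHIP-2 (0.12, adjusted p = 0.42).

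The activating signaling list, from the kinases *Lyn* and *Syk* to phospholipase and PI3-kinase subunits, had 29 of 31 genes in the table. In limma and in voom 0 passed and 5 had an unadjusted p-value under 0.05. Over all genes, 2.22% and 11.8% did so in limma. *Lyn*, a kinase that phosphorylates both the ITAM and the ITIM, had a log2 fold change of -0.20 (limma adjusted p = 0.14). Of its 6 thymol values, 5 lay under the lowest DMSO value. *Lcp2* (SLP-76), an adaptor downstream of Syk, had -0.39 (adjusted p = 0.19). The list of actin remodelling at the phagocytic cup had all 26 genes in the table, and 0 were called by either tool. In each tool 3 had an unadjusted p-value under 0.05, against 11.8% of all genes in limma. *Myo10* had 0.25 (adjusted p = 0.057) and *Hcls1* -0.23 (adjusted p = 0.11).

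Of the phagocyte NADPH oxidase, the enzyme that makes superoxide at the phagosome, all 5 genes were in the table. Of the oxidase genes 1 passed, against 2.22% of all genes. *Cybb*, its catalytic subunit, rose by 0.23 ± 0.053 on the log2 scale (SE, n = 6 each, limma adjusted p = 0.0061). It ranged from 8.76 over a median of 8.95 to 9.12 log2 CPM with DMSO and from 9.13 over 9.19 to 9.23 with thymol, without overlap. Over all genes 1.68% had no overlap, in either direction. The *Cybb* call was lost without the mean-variance trend (adjusted p = 0.20) and in odd-numbered (0.074) or even-numbered libraries alone (0.22). Of 14 regulators of Fc receptor transcription, all in the table, 1 passed, *C5ar1*, and 7 had an unadjusted p-value under 0.05 in limma and in voom, where 2.22% and 11.8% of all genes did so in limma. The median log2 fold change of the list was -0.0017, with 7 genes higher and 7 lower. *C5ar1*, the receptor of complement C5a, is known to shift the balance of activating and inhibitory Fc receptors. It fell by 0.35 on the log2 scale (adjusted p = 0.0034), with 5 thymol values under the lowest DMSO value. The *C5ar1* call was lost without the mean-variance trend (adjusted p = 0.11) and in odd-numbered libraries alone (0.52). A link between its level and those of the Fc receptors was not tested.

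Ligands and further receptors of immunoglobulins were almost absent from the table, from which the authors removed genes with few reads. Of 14 listed ligands, 1 was present, *Ptx3*, a soluble pentraxin that binds Fc gamma receptors, and 0 of the 10 immunoglobulin chain genes were. *Ptx3* fell by 0.61 on the log2 scale (adjusted p = 0.00020), with the 6 thymol libraries below all DMSO libraries. Its highest thymol value was 5.34 and its lowest DMSO value 5.38 log2 CPM. Of all genes 1.57% were called lower, and 1.68% had no overlap in either direction. Of 14 further receptors, only *Fcgrt* was present. It encodes the neonatal Fc receptor, which recycles IgG, and it had a log2 fold change of -0.13 ± 0.098 (SE, n = 6 each, limma adjusted p = 0.68, unadjusted p = 0.19).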

How the data were processed

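Total RNA from 12 MAF cultures was made into QuantSeq 3′ libraries. Per the labels and the study's methods, the authors aligned reads to GRCm38 with STAR 2.5.3, counted them per gene with HTSeq 0.6.1, kept annotated genes past a minimum of reads in 6 or more libraries, and deposited log2 values, log2 CPM on totals scaled by the trimmed mean of M-values with a prior count. A log2 prior pulls the fold changes of low genes towards 0.

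Whole reads were recovered from the steps of the low values. Below 200 reads, 100% of the values came out whole to within 0.02. These reads summed to 5435985 to 9049796 per library and cover counting error only.

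All 10697 genes were fitted with limma 3.58.1 in R 4.3.3 (eBayes with trend, 2 groups, no covariate), two-sided and adjusted by Benjamini-Hochberg at 0.05. The study used a count model. limma was chosen because the table holds log2 values, and voom on recovered reads was an alternative. Positions come from GENCODE vM21, which may differ from the authors' annotation. The fit was tested on simulated data.

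The members and lists were chosen with earlier results of these data known. Named are the 5 members, in each pathway list the genes past the threshold or else the 2 with the smallest p-values, up to 3 top markers per cell type, and the 2 genes most like each member, of which 1 is not reported here. Markers past the threshold, *Gab2* and *Sirpa* were named after their values were seen.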

Additional observations from a re-analysis of the deposited data

Results flagged for a closer look

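Dixon's ratio, the distance of an end value from the next one as a share of the whole range, was computed for the 6 libraries of each group and set against its 95% critical value. Of 10 groups, 2 for each Fc receptor gene, 4 held a library past that value, where chance gives about 1 in 20, here 0.5. The genes share libraries, so the groups are not independent. For *Fcgr4*, thymol replicate 5 was the lowest, with a gap of 0.731 of the range. For *Fcgr3*, DMSO replicate 4 was the lowest (0.696), and without it the log2 fold change was -0.045. For *Fcer1g*, thymol replicate 1 was the highest (0.64), and without it the log2 fold change was 0.010. For *Fcgr1*, thymol replicate 6 was the lowest (0.628), and without it the log2 fold change was 0.31 (limma adjusted p = 0.52). The 4 libraries differ, and none of the 4 genes passed the threshold with or without them. *Fcgr2b* had no such library.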

How the results depend on the processing

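The direction of *Fcgr2b* held under each alternative run. Its log2 fold change passed with voom, both pseudocounts, the filter, median centering, robust eBayes and an odd or even number as a term, and did not pass with quantile normalization (-0.25, adjusted p = 0.062), without the mean-variance trend (-0.26, 0.33), in odd-numbered (-0.29, 0.28) or even-numbered libraries alone (-0.23, 0.31), or by an exact rank-sum test (-0.26, 0.51), each of which left 0 members called. An exact permutation test gave unadjusted p = 0.028. Leaving out 1 library gave -0.32 to -0.21 and 0 to 1 members called. *Fcgr4* passed under no adjusted test, and without adjustment it had p = 0.0060 in limma, 0.026 by rank-sum test and 0.011 by exact permutation test (-0.47 in each). After adjustment *Fcgr1* (0.042 to 0.31) and *Fcer1g* (0.010 to 0.062) never passed. *Fcgr1* and *Fcgr4* have no value under the filter on a mean of 5 log2 CPM. *Fcgr3*, near 0, turned negative with median centering (-0.0056), voom (-0.0057), in odd-numbered libraries (-0.021) and with 1 library left out (-0.048 to 0.060), never passing. Over all genes, 238 passed, against 57 without the trend, 70 in odd-numbered and 167 in even-numbered libraries, 0 by rank-sum test (1016 unadjusted) and 172 to 270 with 1 library left out. The odd and even fits hold 6 libraries each, and the cause was not tested. The labels share replicate numbers but do not say that they pair libraries, and same-numbered libraries correlated by -0.051 to 0.27 in their deviations. With the replicate block, *Fcgr2b* kept its call (adjusted p = 0.0096) and 332 genes passed. *Fcgr1* and *Fcgr4* had the fewest reads and the widest intervals of the 5, and the part of depth in this was not tested. By rank-sum test 0 genes of the pathway lists passed. In odd-numbered libraries alone *Clec4e* (limma adjusted p = 0.10), *Pilra* (0.28), *Lair1* (0.21), *Cybb* (0.074) and *C5ar1* (0.52) did not pass.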
